A study of Caenorhabditis elegans with 4 samples.

Results

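The miR-2 seed family of *C. elegans* comprises the miRNA genes *mir-2*, *mir-43*, *mir-250* and *mir-797* (cel-mir-2, cel-mir-43, cel-mir-250 and cel-mir-797), and was examined in small RNA of animals at the first larval stage (L1). The 4 genes were chosen because their mature miRNAs carry the same seed, and because miR-2 was the RNA to which the study normalized its qRT-PCR of miRNAs. No count entered this rule, but earlier results of these data were known when the choice was made. Of 148 miRNA names in the count table used here, 3 belonged to the family, on 6 of 219 rows, and counts of miR-797 were not analysed here. The mutant strain was *pry-1(mu38)*, which carries a mutant allele of *pry-1*, the gene of the worm's Axin, and the control was the wild-type strain N2. Both were whole animals synchronized at L1, with 2 libraries each, and no label says whether the replicates were separate cultures. p-values therefore measure the spread between these libraries, which may be technical. In RNA of whole animals, fewer cells of a type and less miRNA per cell cannot be told apart.

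A miRNA guides an Argonaute protein to messenger RNAs that pair with its seed, so miRNAs with 1 seed can share targets. The site that pairs with the miR-2 seed is known in *Drosophila* as the K box, and the fly's miR-2 family represses pro-apoptotic genes such as *reaper*, *grim* and *sickle*. Axin is a scaffold of the complex that destroys β-catenin, and so a negative regulator of WNT signaling.

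The mature sequences are printed to show what the family shares and where its members part. They were taken from the study's list of known miRNAs and run 5′ to 3′, with the seed, bases 2 to 8, in capitals.
miR-43: uAUCACAGuuuacuugcugucgc
miR-250: aAUCACAGucaacuguuggca
miR-797: uAUCACAGcaaucacaaugagaa
Of 157 listed known miRNAs, 4 had this seed, and these were the members of the family. Behind the seed the members differed. miR-2 and miR-43 had the same base at 5 of 15 positions, miR-2 and miR-250 at 5 of 13, and miR-2 and miR-797 at 3 of 15. miR-43 and miR-250 matched at 5 of 13 positions, miR-43 and miR-797 at 3 of 15, and miR-250 and miR-797 at 3 of 13. In the study's qRT-PCR design, the last 16 bases of the forward primer for miR-2 were those of the 5′ end of the listed mature miR-2, and the last 8 bases of its stem-loop primer paired with the 3′ end. The primers, though named for the 5p arm, thus matched the arm that carries the seed.

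The 4 genes lie on 4 chromosomes of the WBcel235 assembly. *mir-2* (WBGene00003261) lies on the minus strand of chromosome I at 9372768 to 9372865, inside an intron of *ppfr-1* on the same strand, and overlaps 0 coding exons. *mir-43* (WBGene00003271) lies on the plus strand of chromosome II at 11889910 to 11890007, 4 bases from *mir-42* and 15 bases from *mir-44*, and overlaps the antisense non-coding RNA gene *ZK930.12*. *mir-250* (WBGene00003344) lies on the minus strand of chromosome V at 11769917 to 11770015, 44 bases from *mir-61*, and overlaps no other annotated gene. *mir-797* (WBGene00045358) lies on the plus strand of chromosome X at 4757109 to 4757197.

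Summed over all 219 rows, the counts were 3284425 and 4651818 in *pry-1(mu38)* replicates 1 and 2, and 6651178 and 6491918 in N2 replicates 1 and 2. Counts that 2 genes share, such as those of miR-44 and miR-45, enter these sums once for each gene. Shares of the summed counts rest on these sums, which are thus not numbers of separate reads. In parts of the deposited table, the counts of a library stood up to 3 rows above or below the miRNA they belong to, and they were therefore placed by the read total that the study lists for each miRNA over all libraries. Of 126 miRNAs with a listed total, 88 were matched and 38 were not. The 2 *pry-1(mu38)* libraries differed more from each other than the 2 N2 libraries did, with a median fold between replicates of 1.44 in *pry-1(mu38)* and 1.23 in N2 over the 86 miRNAs tested (miR-2209c, at 0 in both *pry-1(mu38)* libraries, entered only in N2), and of 1.44 in *pry-1(mu38)* and 1.32 in N2 with library totals alone. Values are given as CPM, reads scaled to a common library size, after TMM scaling, which corrects for differences in composition between libraries.

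miR-2 was the most abundant member that was measured. Its second row, which met the listed total, had 7523 and 7963 reads in the *pry-1(mu38)* libraries, and 10347 and 13558 reads in the N2 libraries. Only 1 combination of counts from rows up to 3 apart met this total. It took the N2 replicate 2 count from a row further down, since the row itself held 97 reads for that library. The other 3 counts were on the row itself. The levels were 2373 and 1606 CPM in *pry-1(mu38)*, and 1755 and 1905 CPM in N2. Both N2 libraries thus lay between the 2 *pry-1(mu38)* libraries. This depended on the scaling. As a share of the summed counts miR-2 had 0.229% and 0.171% in *pry-1(mu38)*, and 0.156% and 0.209% in N2, with N2 replicate 1 the lowest. The means were 1989 ± 542 CPM in *pry-1(mu38)* and 1830 ± 106 CPM in N2 (SD, n = 2 each), a log2 fold change of 0.12 with a standard error of 0.31. By edgeR's quasi-likelihood test the adjusted p was 0.922, and the 95% interval ran between 0.616-fold and 1.92-fold. With 2 libraries per strain a change within these bounds cannot be told from none, and on simulated counts the test recovered 55.25% of 4-fold changes. At an adjusted p under 0.05 only miR-2209c was called, with 0 reads in each *pry-1(mu38)* library and 13 in each N2 library. These are few reads, and they rest on placement, since its row as deposited held 343 reads in N2 replicate 2. The call made up 1 miRNA, 1.16% of the 86 tested, and was not a member of the family. The count was 11 without *pry-1(mu38)* replicate 1, 3 without *pry-1(mu38)* replicate 2 and 0 without either N2 library (edgeR, 2 of 85 at an unadjusted p under 0.05), and again no member was called. The log2 fold change of miR-2 was -0.14 without *pry-1(mu38)* replicate 1. With all libraries kept, it was -0.087 with upper-quartile scaling and -0.0029 with no filter. Its direction thus depends on that library, on the scaling and on the filter.

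The first row of miR-2, taken to be the other arm of the hairpin because the table gives no arm, was far lower. It had 44 and 56 reads in *pry-1(mu38)*, and 66 and 104 reads in N2. It was placed by the order of its neighbours and its total was not checked. These reads were 0.585% and 0.703% of the second row in *pry-1(mu38)*, and 0.638% and 0.767% in N2, so the strains overlapped. The log2 fold change was -0.08 with a standard error of 0.43 (edgeR, adjusted p = 0.952).

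miR-43, from the cluster that also encodes *mir-42* of the embryonic miR-35 family and *mir-44*, had 61 and 66 reads in *pry-1(mu38)*, and 74 and 107 reads in N2. Its sum met the listed total by 1 combination, at the displacement of its neighbour miR-44. The levels were 19.2 and 13.3 CPM in *pry-1(mu38)*, and 12.6 and 15.0 CPM in N2, and the strains overlapped. The mean was 16.3 ± 4.19 CPM in *pry-1(mu38)* and 13.8 ± 1.75 CPM in N2 (SD, n = 2 each). The log2 fold change was 0.23 with a standard error of 0.34 (edgeR, adjusted p = 0.843), and the 95% interval ran between 0.632-fold and 2.19-fold.

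miR-44, 15 bases downstream of miR-43 and without the miR-2 seed, was far more abundant than miR-43. It had 120362 and 209973 reads in *pry-1(mu38)*, and 183920 and 235789 reads in N2. This count includes miR-45, whose counts are the same, and reads of the 2 genes cannot be told apart. The levels were 37963 and 42342 CPM in *pry-1(mu38)*, and 31200 and 33126 CPM in N2, and the strains did not overlap. Groups apart in this way were seen in 45.3% of the tested miRNAs, and the log2 fold change of 0.32 did not pass the test (standard error 0.22, edgeR, adjusted p = 0.574). miR-42 was not matched to its total.

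**Figure D1:**
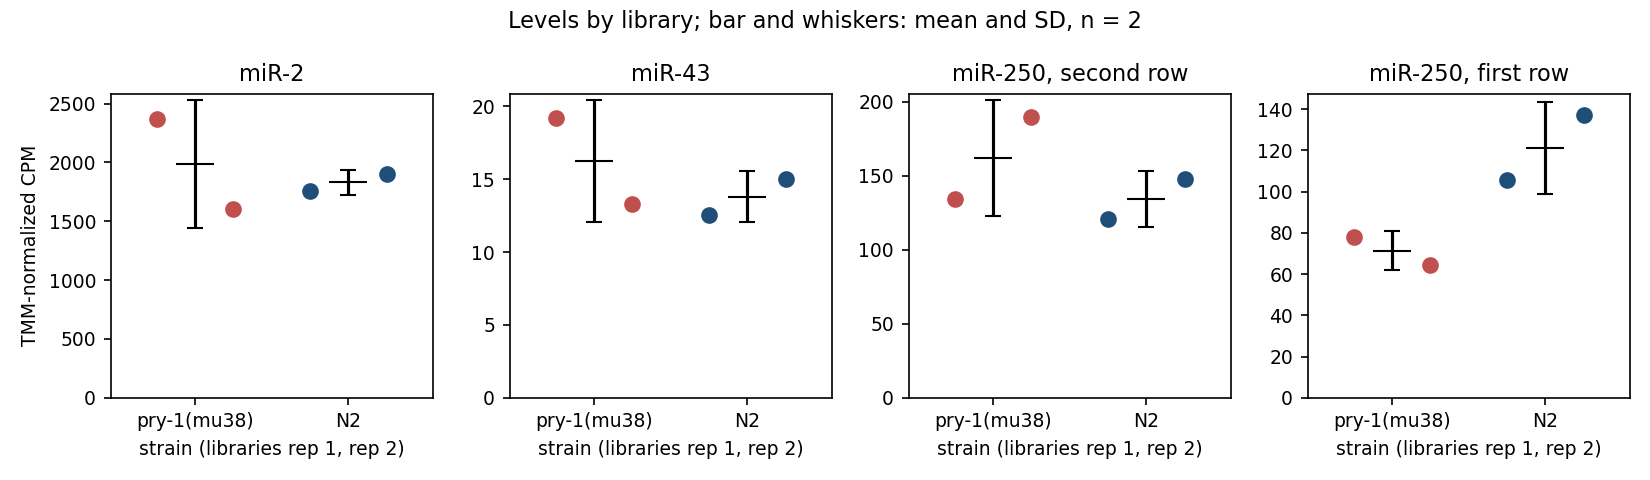
TMM-normalized CPM (vertical axes, linear from 0) of miR-2, miR-43 and both placed rows of miR-250 in *pry-1(mu38)* libraries (left in each panel) and N2 libraries (right). Points are the libraries, and bars with whiskers the mean and SD of 2 libraries. In 3 panels the strains overlap, and in the panel of the first miR-250 row both *pry-1(mu38)* libraries lie below both N2 libraries.

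miR-250 was on 3 rows, and none of them could be matched to the listed total. The *pry-1(mu38)* counts on its first row, 1028 and 1301, completed the listed total of the preceding miR-249. The *pry-1(mu38)* counts of miR-250 were therefore taken 1 row lower, as those of miR-249 were, while the following miR-251 met its total on its own row. Placed in this order, the second row summed to 3089 reads, 1.28% below the total. This row was taken as the arm with the seed. It had 453 and 902 reads in *pry-1(mu38)*, and 726 and 1008 reads in N2. In the wider table of 160 rows, which includes those placed by order, the levels were 134 and 190 CPM in *pry-1(mu38)*, and 121 and 147 CPM in N2. The strains overlapped, with a log2 fold change of 0.27 and a standard error of 0.34 (edgeR over 156 rows, adjusted p = 0.806). The 95% interval ran between 0.653-fold and 2.23-fold. The third row held 0 reads in both N2 libraries as deposited and was not placed.

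The first row of miR-250 went the other way from the second. It had 264 and 307 reads in *pry-1(mu38)*, and 634 and 936 reads in N2. The levels were 78.2 and 64.5 CPM in *pry-1(mu38)*, and 106 and 137 CPM in N2, so the strains did not overlap. Of the rows of the wider table, 44.2% had strains that did not overlap. The log2 fold change was -0.76 with a standard error of 0.35, and it did not pass the test (edgeR, unadjusted p = 0.0839, adjusted p = 0.436). Of the rows of the wider table, 0% were called by this test, with 11 of 156 at an unadjusted p under 0.05. The direction of this row rests on its placement, since with the rows as deposited the log2 fold change was 1.13.

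Within a library, the ratio of the 2 rows of miR-250 needs no scaling. The first row held 58.3% and 34.0% of the reads of the second in *pry-1(mu38)*, and 87.3% and 92.9% in N2. The geometric mean of the ratio was 2.02-fold lower in *pry-1(mu38)*, and its plain mean, 46.2% in *pry-1(mu38)* and 90.1% in N2, was 1.95-fold lower. Among 39 miRNAs with 2 placed rows and at least 10 reads in every library in both, the strains did not overlap in 12, which is 30.8%. Of these 12 the ratio was lower in *pry-1(mu38)* in 8 and higher in 4, and miR-250 came 1st of the 39 by the fold of geometric means. By plain means it came 2nd after miR-791, whose strains overlapped, with 19.1% in *pry-1(mu38)* and 8.33% in N2. This comparison was chosen after its values were seen, it rests on the placement, and it was not tested.

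miR-61, which represses *vav-1* during vulval Notch signaling, is encoded 44 bases from *mir-250* and came 3rd of the 39 by geometric means and 6th by plain means. Its first row had 125 and 151 reads in *pry-1(mu38)*, and 388 and 427 reads in N2. Its second row had 14079 and 36727 reads in *pry-1(mu38)*, and 30139 and 39114 reads in N2. The first row was thus 0.888% and 0.411% of the second in *pry-1(mu38)*, and 1.29% and 1.09% in N2. Neither row passed the test, with log2 fold changes of -0.89 for the first row (edgeR, adjusted p = 0.436) and 0.15 for the second (edgeR, adjusted p = 0.952). miR-61 was also placed by order, with the N2 replicate 2 counts taken from 1 row above and the *pry-1(mu38)* counts on their own rows.

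**Figure D2:**
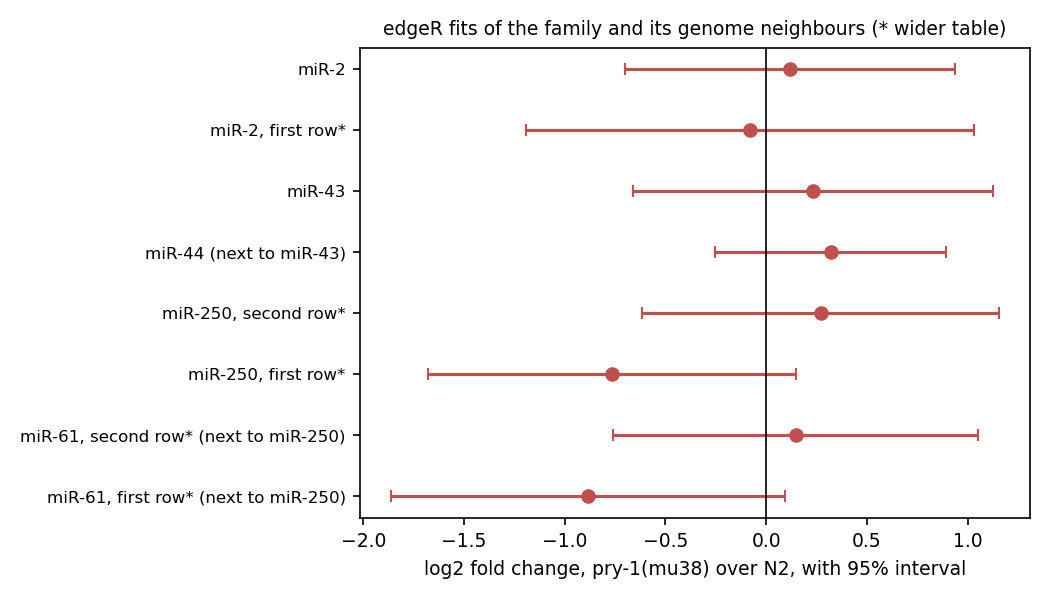
log2 fold change of *pry-1(mu38)* over N2 (horizontal axis) with its 95% interval from edgeR, for each placed row of the family and for miR-44 and miR-61, the genome neighbours. An asterisk marks rows from the wider table, and each of the 8 intervals includes 0.

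The family as a whole was counted as the miR-2 and miR-250 second rows and the miR-43 row. It made up 0.245% and 0.192% of the summed counts of the *pry-1(mu38)* libraries, and 0.168% and 0.226% of those of the N2 libraries. The means were 0.218 ± 0.0373% in *pry-1(mu38)* and 0.197 ± 0.0413% in N2 (SD, n = 2 each). The difference was smaller than the spread between replicates (two-sided exact permutation test, p = 0.667), and with 6 regroupings this design allows no p below 0.333. miR-2 supplied 93.6% and 89.2% of the family's reads in *pry-1(mu38)*, and 92.8% and 92.4% in N2. miR-250 supplied 5.64% and 10.1% in *pry-1(mu38)*, and 6.51% and 6.87% in N2. miR-43 supplied 0.759% and 0.739% in *pry-1(mu38)*, and 0.664% and 0.729% in N2. The order of the 3 members was the same in each of the 4 libraries.

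Among the matched miRNAs, miR-2 ranked 20 to 21 of 87 by reads per library, miR-250 with its second row 41 to 45 of 88, and miR-43 67 to 70 of 87. Unmatched miRNAs, some of them more abundant, are left out of these ranks. Over all 219 rows of N2 replicate 1, whose counts were kept on their own rows, miR-2 came 30th, the second row of miR-250 71st and miR-43 125th. In the wider table, by reads over the 4 libraries, miR-2 stood between the second row of miR-37 and the first row of miR-66, miR-250 between miR-244 and the first row of miR-74, and miR-43 between the first rows of miR-90 and miR-1830. The ranks over more rows were added after the data were seen.

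Set against miR-2 in the same library, miR-43 was steady. There were 8.11 and 8.29 miR-43 reads per 1000 miR-2 reads in *pry-1(mu38)*, and 7.15 and 7.89 in N2. The strains did not overlap, as in 36.5% of 85 miRNAs set against miR-2, but the counting intervals did. The exact binomial 95% interval was 6.20 to 10.4 and 6.40 to 10.6 for the *pry-1(mu38)* libraries, and 5.61 to 8.99 and 6.46 to 9.54 for the N2 libraries. The second row of miR-250 varied more, with 60.2 and 113 reads per 1000 miR-2 reads in *pry-1(mu38)*, and 70.2 and 74.3 in N2. Its *pry-1(mu38)* libraries lay on both sides of N2, and the interval of replicate 2, 106 to 121, lay above the other 3. Its first row had 35.1 and 38.6 reads per 1000 miR-2 reads in *pry-1(mu38)*, and 61.3 and 69.0 in N2.

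**Figure D3:**
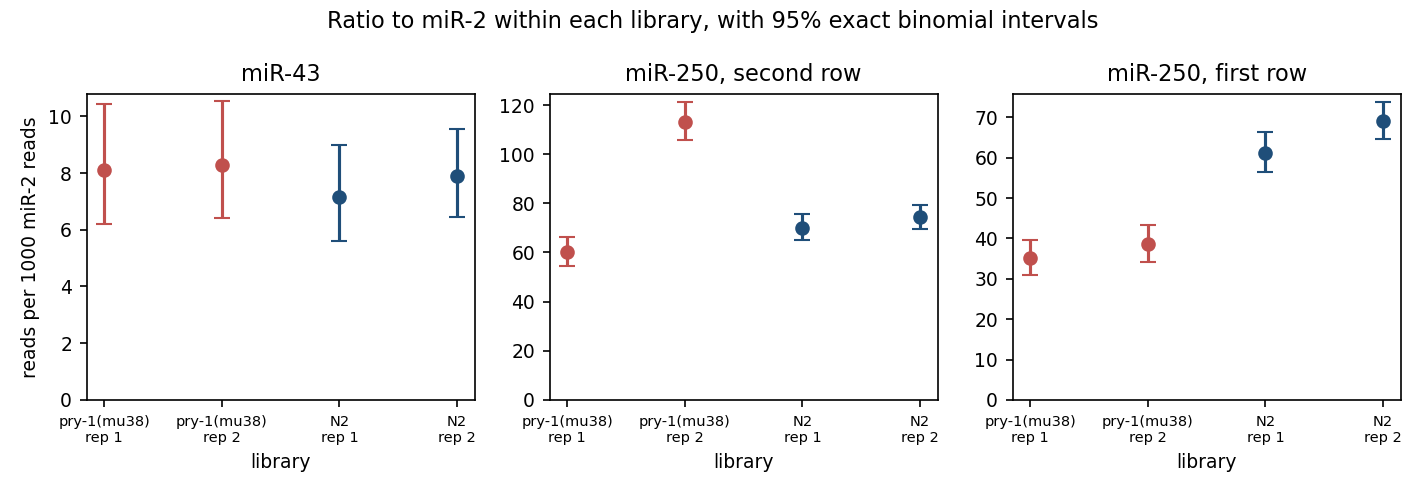
Reads per 1000 miR-2 reads (vertical axes, linear from 0) for miR-43 and both placed rows of miR-250, with *pry-1(mu38)* libraries left and N2 libraries right. Bars are exact binomial 95% intervals, which cover counting error only. miR-43 stays between 7.15 and 8.29, while the second miR-250 row reaches 113 in *pry-1(mu38)* replicate 2.

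miR-43 was also the miRNA whose pattern over the 4 libraries was nearest to that of miR-2 among 85. Likeness was measured as the largest gap between 2 patterns in log2 CPM, each centred on its own mean, so scaling of the libraries does not enter. The gap was 0.13 for miR-43, 0.16 for miR-787 and 0.19 for miR-4816. miR-787 had 264 and 346 reads in *pry-1(mu38)*, and 432 and 494 reads in N2. miR-4816 had 28 and 35 reads in *pry-1(mu38)*, and 39 and 49 reads in N2. These are low counts. A comparison kept to miRNAs with at least 1000 reads over the 4 libraries leaves out miR-43 (308 reads) and miR-4816 (151 reads). Of the 3 only miR-787 (1536 reads) could then remain, and it was again among the nearest 3. This comparison therefore cannot show whether the other 2 hold their place.

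A reference for qRT-PCR should differ little between samples. The SD of log2 CPM over the 4 libraries was 0.24 for miR-2, which came 24th of 86 from the smallest. miR-43 came 26th with an SD of 0.27, and the median over the 86 was 0.39. In the wider table the second row of miR-250 had an SD of 0.28 and came 40th of 156, and its first row had 0.48 and came 86th. On that scaling miR-2 had an SD of 0.19 and came 19th, and miR-43 had 0.23 and came 28th. Among the 86, the 3 smallest SDs were 0.034 for miR-4810, 0.068 for miR-72 and 0.098 for miR-238. miR-72 had 94399 and 96321 CPM in *pry-1(mu38)*, and 92910 and 86399 CPM in N2. miR-238 had 5629 and 5071 CPM in *pry-1(mu38)*, and 4778 and 5184 CPM in N2. miR-4810 had 8 and 12 reads in *pry-1(mu38)*, and 14 and 17 reads in N2, too few to fix its place in this order. For miR-2 the fold between the 2 libraries of a strain was 1.48 in *pry-1(mu38)* and 1.09 in N2. For miR-43 it was 1.45 in *pry-1(mu38)* and 1.20 in N2. The wider table has its own TMM scaling, and there it was 1.41 in *pry-1(mu38)* and 1.22 in N2 for the second row of miR-250. On that scaling it was 1.33 in *pry-1(mu38)* and 1.15 in N2 for miR-2, and 1.30 in *pry-1(mu38)* and 1.27 in N2 for miR-43. Which strain had the larger gap depended on the scaling. With library totals alone, the fold was 1.338 in *pry-1(mu38)* and 1.342 in N2 for miR-2, 1.31 in *pry-1(mu38)* and 1.48 in N2 for miR-43, and 1.41 in *pry-1(mu38)* and 1.42 in N2 for the second row of miR-250.

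**Figure D4:**
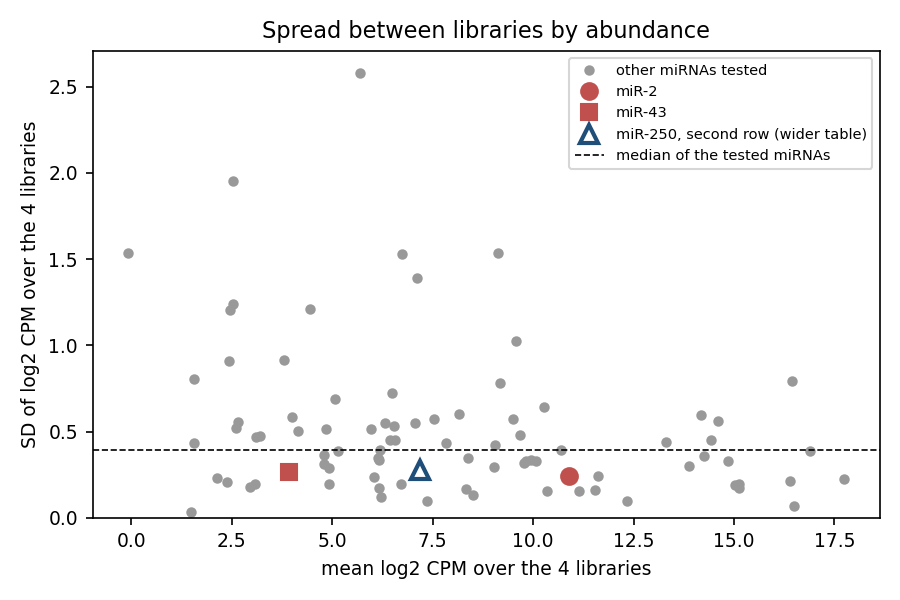
SD of log2 CPM over the 4 libraries (vertical axis) against mean log2 CPM (horizontal axis) for 86 miRNAs. Filled red marks are miR-2 and miR-43, the open triangle is the second row of miR-250 from the wider table, and the dashed line is the median of the 86, 0.39. The marks of miR-2, miR-43 and the second row of miR-250 lie below the line, which does not come from the wider table. The first row of miR-250, not plotted, had an SD of 0.48 in the wider table.

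Scaling each library by 1 miRNA sets every count against that miRNA's count in the same library, and edgeR was then run again. The outcome follows from the counts of that miRNA given above and does not test the scale. By miR-2 the median log2 fold change of the other 85 miRNAs was 0.02, beside 0.08 by TMM. It was -0.13 by miR-43, -0.23 by the second row of miR-250, 0.81 by its first row and -0.26 by miR-44.

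The 6 miRNAs that the study took up were set against miR-2, as in its qRT-PCR. *lin-4*, which times the step from L1 to the next stage, had 10.5 and 464 reads per 1000 miR-2 reads in *pry-1(mu38)*, and 10.2 and 10.3 in N2. It was thus high in *pry-1(mu38)* replicate 2, and within the counting intervals of N2 in replicate 1. miR-237, of the *lin-4* family, had 401 and 1156 in *pry-1(mu38)*, and 207 and 278 in N2. Among *let-7* family members, miR-48 had 37.2 and 283 in *pry-1(mu38)*, and 52.6 and 18.4 in N2. miR-84 had 6.25 and 42.8 in *pry-1(mu38)*, and 5.32 and 11.7 in N2. Of these 2, *pry-1(mu38)* replicate 2 was above both N2 libraries and replicate 1 lay between them. miR-241, of the same family, had 1.20 and 27.1 in *pry-1(mu38)*, and 1.64 and 1.11 in N2. miR-246 had 25.5 and 38.1 in *pry-1(mu38)*, and 227 and 129 in N2. In TMM-normalized CPM miR-246 had 60.6 and 61.1 in *pry-1(mu38)*, and 399 and 245 in N2. By this scaling the gap between its *pry-1(mu38)* replicates against miR-2 was that of miR-2. With library totals alone the fold of miR-2 between these replicates was smaller, at 1.34. Both *pry-1(mu38)* libraries were above N2 for miR-237 and, by a small margin in replicate 1, *lin-4*, and below N2 for miR-246. The strains overlapped for miR-48, miR-84 and miR-241. Of 85 miRNAs set against miR-2, 36.5% had strains that did not overlap. The miR-2 level itself was 1.48-fold higher in *pry-1(mu38)* replicate 1 than in replicate 2, which is small beside the replicate gap of *lin-4*.

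The placement of the counts decided how the family read. As deposited, the second row of miR-2 had 7523 and 7963 reads in *pry-1(mu38)*, and 10347 and 97 reads in N2. The row of miR-43 had 0 and 567 reads in *pry-1(mu38)*, and 74 and 1354 reads in N2. The second row of miR-250 had 264 and 307 reads in *pry-1(mu38)*, and 726 and 1008 reads in N2. With the rows as deposited the SD of log2 CPM was 3.39 for miR-2, 4.16 for miR-43 and 0.62 for the second row of miR-250.

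**Figure D5:**
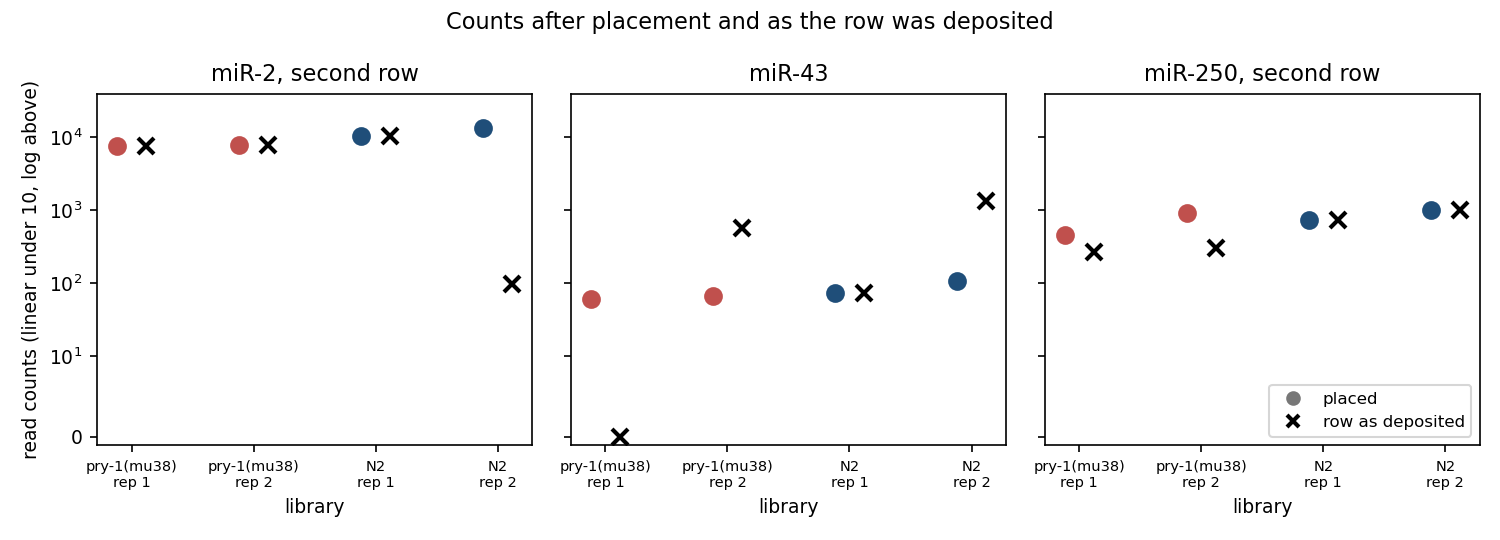
Read counts of miR-2 (second row), miR-43 and miR-250 (second row) in each library, *pry-1(mu38)* left and N2 right, on an axis that is linear under 10 and logarithmic above. Circles are counts after placement and crosses the counts on the row as deposited. Circles and crosses part for miR-2 in N2 replicate 2, for miR-43 in 3 libraries and for miR-250 in both *pry-1(mu38)* libraries.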

How the data were processed

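The authors sequenced small RNA of L1 animals on an Illumina instrument. Per the study's methods, perfect matches to the precursors of known miRNAs (miRBase, WBcel235) were kept. The series' design text names miRDeep2 for their abundance, and the methods name it for the search for further miRNAs. The deposited values are raw read counts per miRNA row and library, and versions are not given in the sources used here.

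Counts were placed by the listed read totals, searching up to 3 rows up or down. A single displaced match was accepted for totals of at least 1000 reads with no other total within 10 reads, and otherwise where a neighbour had the same displacement. Sums within 0.1% were accepted at a neighbour's displacement. A wider table added 73 rows placed by order. Tested on simulated data (20 draws), 85.71% of miRNAs were matched and 0.1389% of matches were wrong. In the data a smaller share was matched, 88 of 126, so this error rate may not carry over. It is a rate among matches and does not cover rows placed by order, such as those of miR-250 and miR-61. The placement, the members and the lists were chosen with earlier results of these data known.

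edgeR 4.0.16 in R 4.3.3 was run with TMM, filterByExpr (minimum 10 counts) and the two-sided quasi-likelihood test on all 4 libraries without covariates, with Benjamini-Hochberg adjustment over all rows tested. A standard error is the size of the log2 fold change over the square root of F. On simulated counts of 86 miRNAs, 20 of them changed 4-fold, 55.25% were recovered in 20 draws and 6.75% of calls were wrong. Intervals of shares and ratios are exact binomial 95% intervals (scipy 1.17.1), and cover counting error only, since amplified reads carry no molecular identifiers. DESeq2 1.42.0 was an alternative, beside other scalings, filters, the exact test, the replicate block, left-out libraries and the rows as deposited. Named were the members, their genome neighbours, the 3 miRNAs nearest to miR-2, the 3 with the smallest spread, those next in abundance and the 6 miRNAs the study took up. Positions came from Ensembl release 115 of WBcel235. qRT-PCR was not analysed here.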

Additional observations from a re-analysis of the deposited data

How the results depend on the processing

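No member passed an adjusted p of 0.05 in any fit run. Of 86 miRNAs 1, miR-2209c, was called. DESeq2's Wald test also called 1, but this was miR-246. The count was 2 with edgeR's exact test (miR-2209c and miR-246), and 0 with no filter, a minimum of 10 counts per library, the most abundant miRNA removed, the rows as deposited or the wider table, where 8 of 87, 6 of 80, 9 of 85, 15 of 210 and 11 of 156 had an unadjusted p under 0.05. Leaving out 1 library gave 0 calls (without either N2 library, 2 of 85 at an unadjusted p under 0.05) to 11 calls (without *pry-1(mu38)* replicate 1), by edgeR, with the lone library assumed to vary like the others. The log2 fold change of miR-2 was -0.087 with upper-quartile scaling and -0.0029 with no filter. The most that leaving out a library moved it was to -0.14 and 0.18. For miR-43 that range was -0.011 to 0.37, for the second row of miR-250 -0.00018 to 0.46, for the first row of miR-2 -0.30 to 0.073, for miR-44 -0.0086 to 0.44, and for the second row of miR-61 -0.36 to 0.48. With the rows as deposited the log2 fold change was 1.17 for miR-2 (standard error 2.15) and -0.95 for miR-43. It was -1.04 and 1.13 for the second and first rows of miR-250, and -6.27 for miR-44. The SD of log2 CPM was then 3.39 for miR-2, 4.16 for miR-43 and 0.623 for miR-250. Some of these rows hold counts of other miRNAs. The first row of miR-250 stayed between -0.95 and -0.63 when a library was left out.

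The family's share was 0.289% in *pry-1(mu38)* and 0.245% in N2 without the most abundant miRNA, which makes the total smaller, and 0.103% in N2 with the rows as deposited. Leaving out a library gave 0.192% to 0.245% in *pry-1(mu38)* and 0.168% to 0.226% in N2. Counting all rows with a member's name, an alternative chosen after seeing the data, gave 0.227% in *pry-1(mu38)* and 0.210% in N2. By spread miR-2 came 9th and miR-43 15th with upper-quartile scaling.

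The replicate numbers are shared by label only. Equally numbered libraries deviated together with r = 0.305 across 86 miRNAs, which are not independent replicates, and with 2 pairs this does not show a pairing. With the replicate block edgeR called 0 miRNAs (18 at an unadjusted p under 0.05), and the log2 fold change of miR-2 was 0.094 (adjusted p = 0.825).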
